A study of Mus musculus with 9 samples.

Results

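PRC1.6 is the variant Polycomb repressive complex that is built around PCGF6, and its 10 subunit genes Pcgf6, Mga, Max, E2f6, Tfdp1, L3mbtl2, Ring1, Rnf2, Rybp and Wdr5 were followed here in mouse embryonic stem cells (ESCs) depleted of Dppa2 or Dppa4. The genes were chosen by name among the 25965 genes of the deposited table, and all 10 were found under their symbols. E14 ESCs of 129/Ola background, grown in serum and LIF without feeder cells, were transfected with control siRNA, Dppa2 siRNA or Dppa4 siRNA, transfected again at 48 h and collected at 96 h (4 d). Each siRNA was a commercial pool. The study describes these knockdowns in ESCs that carry a double reporter, MERVL::tdTomato and Zscan4c::eGFP, which lights up in the rare cells of the 2C-like state, while the labels of the libraries name E14 without a reporter. All groups received an siRNA, so untransfected cells are not among the samples. Polyadenylated RNA was sequenced in 9 libraries, with 3 libraries per siRNA that are called A, B and C here. Their titles read rep3A, rep3B and rep3C for every siRNA, and the labels do not explain the shared rep3. The study calls its replicates of these treatments biological, and the labels do not say whether they were separate cultures or transfections, so the p-values measure the spread between these samples.

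Polycomb repressive complex 1 places ubiquitin on histone H2A, and in PRC1.6 this is done by RING1 or RNF2 together with PCGF6. The complex reaches DNA through the dimer of MGA and MAX, which can bind E-boxes, and through the dimer of E2F6 and TFDP1 (also called DP1), which can bind E2F sites. In ESCs it is known for keeping genes of germ cells and meiosis silent. DPPA2 and DPPA4 are small chromatin proteins of pluripotent cells and early germ cells that bind each other. The values are log2 levels made by the authors and are not divided by transcript length, so they follow one gene from library to library. A gene without reads stands near -4.49 on this scale.

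Both targeted transcripts were lower in the libraries labelled for their siRNA. Dppa2 stood at 7.26, 7.16 and 6.94 in control siRNA libraries A, B and C and at 3.36, 3.86 and 3.68 in the Dppa2 knockdown, or 0.0893 of control (log2 difference -3.49 ± 0.14 SE, adjusted p = 2.13e-05). Dppa4 stood at 7.02, 7.11 and 7.06 in control siRNA and at 6.16, 6.14 and 6.09 in the Dppa4 knockdown, or 0.524 of control (-0.93 ± 0.08 SE, adjusted p = 0.000281). More of the targeted transcript was thus left after Dppa4 siRNA. By qRT-PCR the study reports a deeper loss of Dppa4 mRNA than these libraries show, again weaker than that of Dppa2. Dppa4 was not called with Dppa2 siRNA (0.05, adjusted p = 0.888), nor Dppa2 with Dppa4 siRNA (-0.05, adjusted p = 0.921). These values are of RNA and not of protein. The study reports that Dppa4 siRNA also lowered DPPA2 protein without a change of its mRNA. It reports a smaller loss of DPPA4 protein with Dppa2 siRNA, and a strong loss of each targeted protein. The libraries held about 16.8 to 39.7 Mreads on genes, a number inferred from the order of the values and approximate. ESC markers were abundant in all 9 libraries, and limma called 0 of 8 in either knockdown (0 and 1 at an unadjusted p below 0.05), with median log2 differences of 0.10 and 0.12.

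No change of the 10 PRC1.6 genes passed the test in either knockdown. All 10 passed the filter on low values (log2 above -2 in at least 3 libraries), and limma called 0 of 10 with Dppa2 siRNA and 0 of 10 with Dppa4 siRNA at an adjusted p below 0.05, while it called 3.44% of the 14601 tested genes in each comparison. Without adjustment 0 of 10 were below 0.05 in either comparison, beside 15.7% of all tested genes with Dppa2 siRNA and 18% with Dppa4 siRNA. The largest difference was 0.31 on the log2 scale, a factor of 1.24, for Tfdp1 with Dppa4 siRNA. The median of the 10 log2 differences was -0.03 in the Dppa2 and 0.05 in the Dppa4 knockdown, beside medians of 0.02 and 0.03 over all tested genes. Between the knockdowns 0 of 10 were called, against 0.0205% of tested genes, and 1 of 10 had an unadjusted p below 0.05, beside 6.76%. How much of a change these libraries leave possible differed widely between the genes, and the sections that follow give each gene's values and interval.

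**Figure D1:**
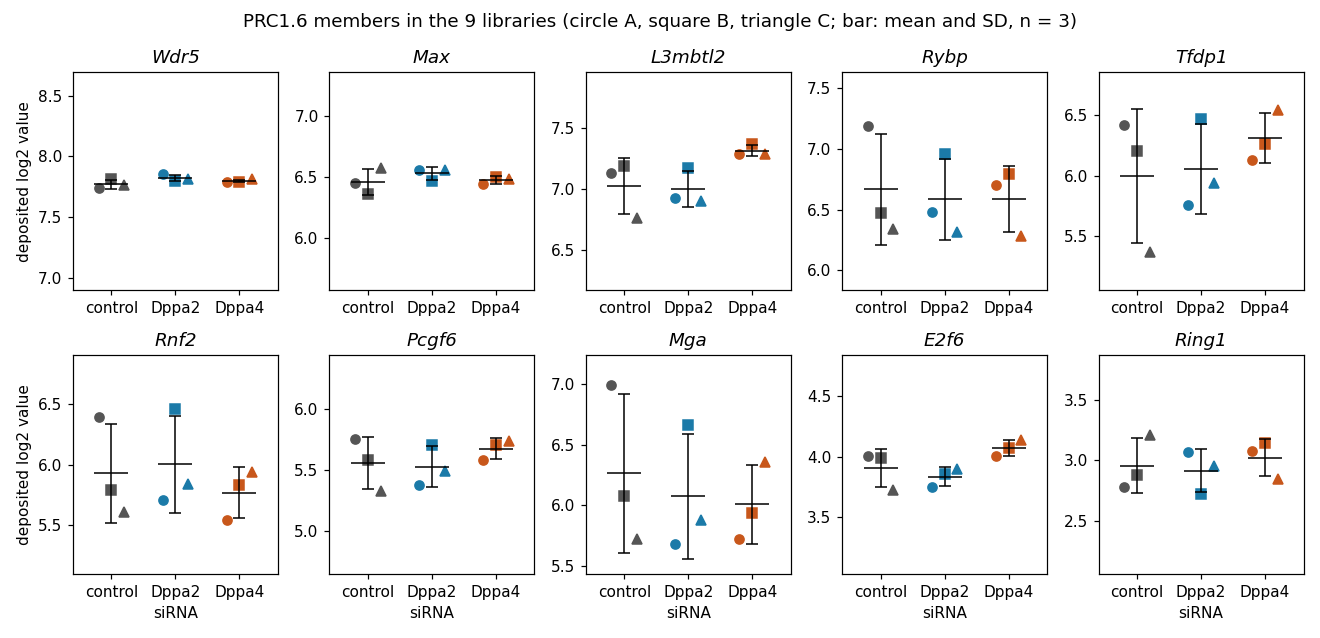
Deposited log2 value of each PRC1.6 gene in the 9 libraries, by siRNA on the x axis, with a circle, square or triangle for library A, B or C and a bar for the mean and SD of 3 libraries. Each y axis spans the same number of log2 units, so that the near-constant Wdr5 and Max can be set against Mga, Tfdp1, Rnf2 and Rybp, whose libraries spread within every siRNA, while L3mbtl2 lay higher in the 3 Dppa4 siRNA libraries than in the other 6.

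Pcgf6 (ENSMUSG00000025050, chromosome 19, 47033619 to 47050845, minus strand, GRCm38) encodes the RING finger protein that sets PRC1.6 apart from the other PRC1 complexes. Its log2 values were 5.76, 5.58 and 5.33 in control siRNA A, B and C, 5.38, 5.71 and 5.49 in Dppa2 siRNA, and 5.58, 5.71 and 5.74 in Dppa4 siRNA. The 3 groups overlapped, and the lowest and the highest value were both in control siRNA. The difference from control was -0.03 for Dppa2 siRNA (95% interval -0.33 to 0.27) and 0.12 for Dppa4 siRNA (-0.18 to 0.42), with adjusted p of 0.978 and 0.741. These intervals run from 0.794 to 1.21 and from 0.880 to 1.34 of the control level. Among the 11538 tested genes that varied at least as much as Pcgf6, those with the most similar course over the 9 libraries were 2310008H09Rik, Zmym3 and Rrm1, with root mean square differences of 0.029, 0.034 and 0.041 after each gene was centred on its mean. A library axis described below held 82.7% of the variance of Pcgf6, and shared regulation of these genes was not tested.

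The genes of the E-box binding dimer behaved differently from each other. Mga (ENSMUSG00000033943, chromosome 2, 119897228 to 119969581, plus strand) encodes the large scaffold protein with a T-box and a helix-loop-helix domain, and it was the most variable of the 10. Its log2 values were 6.99, 6.08 and 5.72 in control siRNA, 5.68, 6.66 and 5.88 in Dppa2 siRNA, and 5.72, 5.94 and 6.36 in Dppa4 siRNA. Control siRNA A and Dppa2 siRNA B stood above the other 7 libraries, and each siRNA had low libraries as well. The range over the 9 libraries was 1.32, a factor of 2.49, and the SD within control siRNA alone was 0.65. The Dppa2 siRNA difference was -0.19 (-0.99 to 0.60) and that of Dppa4 siRNA -0.26 (-1.05 to 0.54), with adjusted p of 0.920 and 0.797. Without control siRNA A they were 0.17 and 0.11, so 1 control library set the sign. Changes to 0.503 or 1.52 of the control level with Dppa2 siRNA were not distinguishable from no change. Otud4, Med14 and Ankrd28 were the most similar of 3103 genes that varied at least as much as Mga over the 9 libraries, with root mean square differences of 0.069, 0.072 and 0.073. For Mga the same library axis held 88.8% of the variance, and shared regulation was again not tested.

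Max (ENSMUSG00000059436, chromosome 12, 76937269 to 76962248, minus strand), which encodes the common partner of MYC, MGA and the other proteins of the MAX network, was steady. It stood at 6.45, 6.36 and 6.57 in control siRNA, 6.56, 6.47 and 6.56 in Dppa2 siRNA, and 6.44, 6.50 and 6.48 in Dppa4 siRNA. The groups overlapped within a total range of 0.21, and 167 of the 14601 tested genes had a smaller SD over the libraries. Against control Max differed by 0.07 (-0.13 to 0.26) in the Dppa2 and by 0.01 (-0.18 to 0.21) in the Dppa4 knockdown, so that changes beyond 0.914 to 1.20 and 0.881 to 1.16 of the control level lay outside the 95% intervals.

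Of the genes of the E2F dimer, E2f6 varied less over the libraries than Tfdp1. E2f6 (ENSMUSG00000057469, chromosome 12, 16810965 to 16826743, plus strand) encodes an E2F protein that represses without a pocket protein. Its log2 values were 4.01, 3.99 and 3.73 in control siRNA, 3.75, 3.86 and 3.90 in Dppa2 siRNA, and 4.01, 4.07 and 4.14 in Dppa4 siRNA. The Dppa4 siRNA libraries all stood above the Dppa2 siRNA libraries, and control siRNA overlapped both. Against control the differences were -0.07 (-0.33 to 0.18) and 0.16 (-0.09 to 0.42), with adjusted p of 0.889 and 0.522, and between the knockdowns the difference was 0.24 (-0.01 to 0.49, unadjusted p = 0.0616, adjusted p = 0.769). Tfdp1 (ENSMUSG00000038482, chromosome 8, 13339674 to 13377702, plus strand), the dimer partner of E2F proteins, stood at 6.42, 6.20 and 5.37 in control siRNA, 5.76, 6.47 and 5.94 in Dppa2 siRNA, and 6.13, 6.26 and 6.54 in Dppa4 siRNA. Control siRNA C was the lowest library, and the groups overlapped. Tfdp1 differed by 0.06 (-0.56 to 0.69) after Dppa2 siRNA and by 0.31 (-0.31 to 0.94) after Dppa4 siRNA, with adjusted p of 0.978 and 0.648. Without control siRNA C these were -0.25 and 0.00.

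L3mbtl2 (ENSMUSG00000022394, chromosome 15, 81663889 to 81688315, plus strand) encodes a protein with malignant brain tumour repeats, which bind methylated lysines. It stood at 7.13, 7.19 and 6.76 in control siRNA, 6.93, 7.17 and 6.90 in Dppa2 siRNA, and 7.29, 7.37 and 7.29 in Dppa4 siRNA. The 3 Dppa4 siRNA libraries lay above all 6 others. L3mbtl2 was the 1 gene of the 10 whose Dppa4 siRNA and control siRNA values did not overlap, a pattern with Dppa4 siRNA higher that 13.7% of all tested genes had. Against Dppa2 siRNA, L3mbtl2 and E2f6 were the 2 of 10 whose Dppa4 siRNA values were all higher, as they were for 10.1% of tested genes. With Dppa2 siRNA 0 of 10 were separated from control siRNA in either direction, against 17.8% of tested genes. The L3mbtl2 difference between Dppa4 siRNA and control was 0.29 (-0.01 to 0.58, unadjusted p = 0.0541, adjusted p = 0.290), a factor of 1.22, and that between the knockdowns was 0.32 (0.02 to 0.61, unadjusted p = 0.0373, adjusted p = 0.722). With Dppa2 siRNA it was -0.03 (-0.32 to 0.26, adjusted p = 0.978).

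The genes of the catalytic core also split into steady and variable ones. Ring1 (ENSMUSG00000024325, chromosome 17, 34020792 to 34024680, minus strand) and Rnf2 (ENSMUSG00000026484, chromosome 1, 151469406 to 151500823, minus strand; its protein is also called RING1B) encode the alternative ubiquitin ligases shared by all PRC1 complexes. Ring1 stood at 2.78, 2.88 and 3.21 in control siRNA, 3.07, 2.72 and 2.95 in Dppa2 siRNA, and 3.08, 3.14 and 2.85 in Dppa4 siRNA, with the groups mixed. It rested on few reads, about 173 in the shallowest library, Dppa2 siRNA C. Rnf2 stood at 6.39, 5.79 and 5.61 in control siRNA, 5.71, 6.46 and 5.84 in Dppa2 siRNA, and 5.54, 5.83 and 5.94 in Dppa4 siRNA. As for Mga, control siRNA A and Dppa2 siRNA B were the highest libraries of Rnf2. The differences of Ring1 were -0.04 (-0.40 to 0.31) and 0.07 (-0.28 to 0.42), and those of Rnf2 were 0.07 (-0.48 to 0.63) and -0.16 (-0.72 to 0.40), with Dppa2 and Dppa4 siRNA respectively. Adjusted p ranged from 0.828 to 0.969.

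Rybp (ENSMUSG00000072872, chromosome 6, 100228566 to 100287441, minus strand) encodes the subunit that stimulates the ligase in variant PRC1 complexes. It stood at 7.19, 6.47 and 6.34 in control siRNA, 6.48, 6.96 and 6.32 in Dppa2 siRNA, and 6.70, 6.79 and 6.28 in Dppa4 siRNA. Control siRNA A was again highest, followed by Dppa2 siRNA B. The differences were -0.08 (-0.65 to 0.50, adjusted p = 0.967) and -0.07 (-0.65 to 0.50, adjusted p = 0.936), and without control siRNA A both were 0.19. Wdr5 (ENSMUSG00000026917, chromosome 2, 27515157 to 27536535, plus strand) encodes a WD40 repeat protein that PRC1.6 shares with the histone H3 lysine methyltransferase complexes of the MLL family. It stood at 7.74, 7.81 and 7.76 in control siRNA, 7.85, 7.80 and 7.81 in Dppa2 siRNA, and 7.79, 7.79 and 7.81 in Dppa4 siRNA. All 9 values lay within 0.10, a factor of 1.07, and 3 of the 14601 tested genes had a smaller SD. For Wdr5 the intervals were the narrowest of the 10, at 0.921 to 1.16 of the control level for Dppa2 siRNA and 0.907 to 1.14 for Dppa4 siRNA. The signs of the small differences of Pcgf6, Max, L3mbtl2, Ring1 and Rnf2 also depended on single libraries in 1 comparison or more, and no call resulted.

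**Figure D2:**
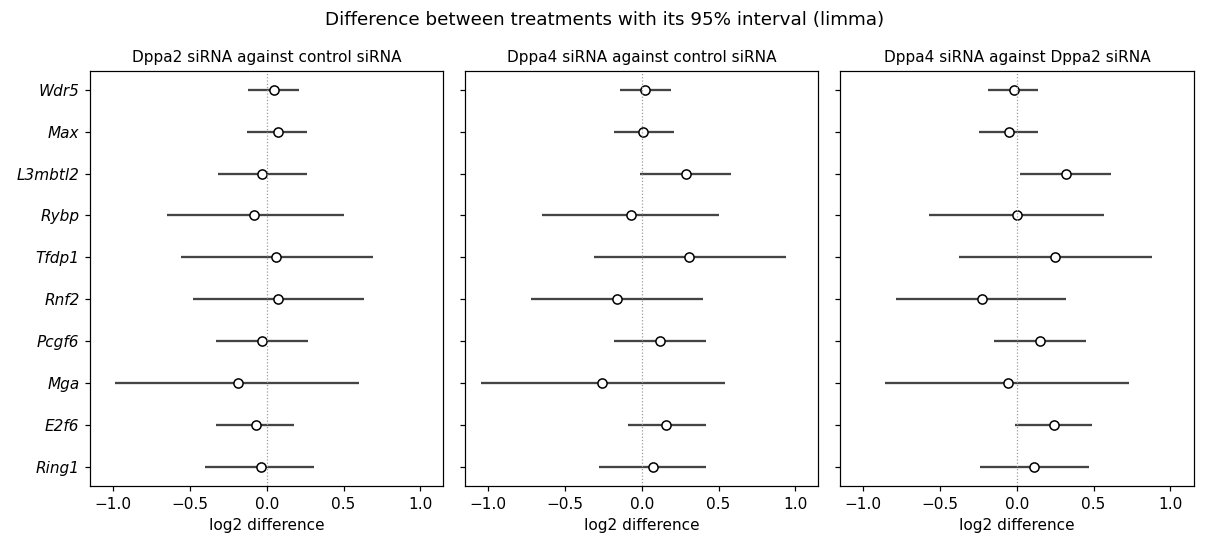
Log2 difference between treatments (x axis) with its 95% interval from limma for each PRC1.6 gene (y axis, ordered by level per kilobase), in the 3 comparisons. No gene was called, the intervals of Wdr5 and Max stayed within 0.26 log2 units of 0 and those of Mga reached -1.05, and L3mbtl2 between the knockdowns was the 1 interval that did not include 0 before adjustment.

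To compare levels between the genes, log2 values were reduced by the log2 of the exon length in kilobases, taken from the union of annotated exons. On this scale the mean level over the 9 libraries was highest for Wdr5, at 5.95 (range 5.90 to 6.0), which was above every library of every other gene. Max followed at 4.64 (4.52 to 4.72), L3mbtl2 at 4.54 (4.19 to 4.80), Rybp at 4.37 (4.03 to 4.94), Tfdp1 at 4.24 (3.49 to 4.66) and Rnf2 at 3.85 (3.49 to 4.42). In this order each gene from Max to Rnf2 overlapped the next in its range over the libraries, so neighbours are not resolved. Pcgf6 was at 3.26 (3.01 to 3.43), below the lowest library of Rnf2, and Mga at 2.18 (1.74 to 3.05), with a range that touched that of Pcgf6. E2f6 at 1.44 (1.23 to 1.64) and Ring1 at 1.27 (1.03 to 1.51) were lowest and overlapped. Of the alternative ligases, Rnf2 thus had the higher level per kilobase in all 9 libraries. Mga, at 15340 bp the longest transcript model of the 10, lost most by this step, and unused exons in the annotation would lower a gene on this scale.

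Much of the spread of the PRC1.6 genes followed an axis that separated libraries within each siRNA. The first principal component of the 8568 other genes with a mean log2 value above 3 held 65.0% of their variance. It placed control siRNA A at 0.562 and Dppa2 siRNA B at 0.406 on one side and control siRNA C at -0.516 and Dppa2 siRNA A at -0.357 on the other, with the Dppa4 siRNA libraries between -0.159 and 0.195. The 10 genes lay on both sides of this axis. Their slopes, in log2 units per unit of the axis, were 1.23 for Mga, 0.95 for Tfdp1, 0.79 for Rnf2, 0.63 for Rybp, 0.41 for Pcgf6, 0.35 for L3mbtl2 and 0.23 for E2f6, were near 0 for Wdr5 (-0.02) and Max (-0.12), and were -0.41 for Ring1. The axis held 88.8% of the variance of Mga over the 9 libraries, 82.7% of Pcgf6, 80.2% of Tfdp1, 75.6% of Rnf2, 72.7% of Ring1 and 49.5% of Rybp, and 7.31% to 37.4% of the other 4. Of the well expressed genes 10% had slopes below -0.73 and 10% above 0.73, and 97.5% had a slope below that of Mga. Over 8379 well expressed genes the slope had a Spearman correlation of 0.57 with exon length and of -0.38 with GC content, a description across genes that share the same 9 libraries. Mga has the longest and Ring1 the shortest exon length of the 10 (15340 and 3243 bp), and Ring1 the highest GC content (56.9%). When a smooth function of length and GC content was removed from every library, the SE of the Mga difference fell from 0.35 to 0.16 and that of Rnf2 from 0.25 to 0.12, and 0 of 10 genes were called. The part of RNA quality or library preparation in this axis was not tested.

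**Figure D3:**
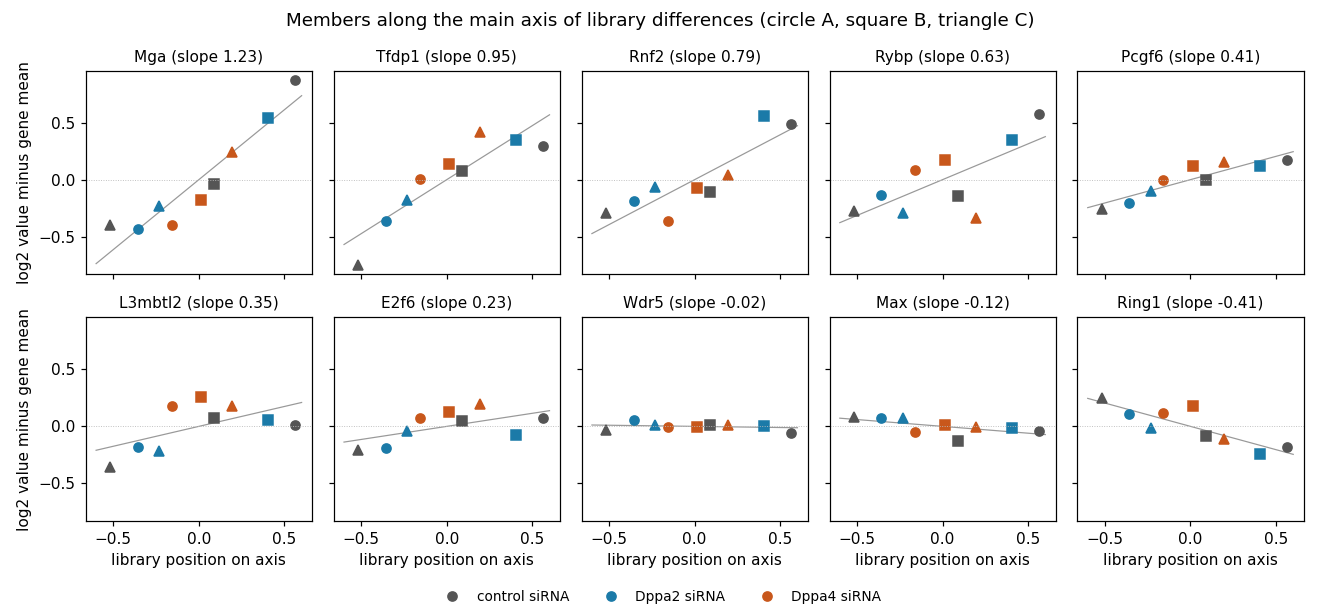
Log2 value of each PRC1.6 gene minus its mean (y axis) against the position of the library on the first principal component of the other well expressed genes (x axis, no unit), with colours for the siRNA, symbols for libraries A, B and C and a line with the slope. Mga, Tfdp1, Rnf2 and Rybp rise from control siRNA C to control siRNA A along the axis, Wdr5 and Max stay flat, Ring1 falls, and the orange Dppa4 siRNA points of L3mbtl2 lie above its line.

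With the position on this axis as a covariate, an alternative chosen after the values had been seen, L3mbtl2 and Tfdp1 were called higher with Dppa4 siRNA. L3mbtl2 differed from control by 0.30 (0.14 to 0.45, adjusted p = 0.0131) and Tfdp1 by 0.34 (0.18 to 0.50, adjusted p = 0.00783). These were 2 of 10 genes called higher, beside 13.3% of all tested genes in that fit. Between the knockdowns L3mbtl2 was called as well (0.29, 0.14 to 0.44, adjusted p = 0.0422), as 1 of 10 beside 2.68%. With Dppa2 siRNA 0 of 10 were called in the same fit, beside 17.2% of tested genes called in either direction, and 1 of 10, Tfdp1, had an unadjusted p below 0.05 (0.0418, at 0.17). The size of the L3mbtl2 difference was nearly the same in both fits, 0.29 and 0.30, while its SE fell from 0.13 to 0.07. These calls depended on single libraries. In the same fit the difference of L3mbtl2 from control was not called without control siRNA A (0.24, adjusted p = 0.0865), control siRNA C (0.22, 0.0702), Dppa4 siRNA A (0.28, 0.0535) or Dppa4 siRNA B (0.27, 0.0626), and that of Tfdp1 was not called without control siRNA A (0.28, 0.0584). The L3mbtl2 difference between the knockdowns was called without control siRNA B, control siRNA C or Dppa4 siRNA C (adjusted p of 0.00607, 0.0122 and 0.0448) and not without any 1 of the other 6 libraries. Without control siRNA B, Mga (-0.34, adjusted p = 0.00303), Rnf2 (-0.22, 0.0219) and E2f6 (0.21, 0.049) were called against control with Dppa4 siRNA as well, Tfdp1 with Dppa2 siRNA (0.25, 0.00874), and Rnf2, Tfdp1 and E2f6 between the knockdowns. Leaving out control siRNA C instead added Rnf2, higher with Dppa2 siRNA (0.32, adjusted p = 0.0137), and between the knockdowns Rnf2 (-0.32, 0.00797) and E2f6 (0.23, 0.0362). The share of all tested genes called in these leave-out fits is not available here. These added calls therefore have no background beside them and are not read as results about the 10 genes.

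Genes that work with or beside PRC1.6 were examined as lists, and 1 of the 64 genes in these lists was called. With the position on the library axis as a covariate, 7 of the 64 were called with Dppa2 siRNA, all lower, beside the 17.2% of tested genes, and 19 with Dppa4 siRNA, 7 higher and 12 lower, beside 24.8%. Of the 6 further subunits (Tfdp2, Yaf2, Cbx1, Cbx3, Hdac1 and Hdac2) 0 were called in either knockdown (0 and 2 at an unadjusted p below 0.05). The smallest adjusted p was that of Hdac2, which encodes a histone deacetylase, at -0.18 with Dppa2 siRNA (adjusted p = 0.596) and -0.44 with Dppa4 siRNA (adjusted p = 0.0995). With the covariate 0 of the 6 were called with Dppa2 siRNA and 3 with Dppa4 siRNA, all lower, beside the 24.8% of tested genes. These were Hdac2 (-0.45, adjusted p = 0.00351), Tfdp2 and Yaf2. Of 26 genes of other PRC1 complexes, 0 were called with Dppa2 siRNA (3 at an unadjusted p below 0.05) and 1 was called lower with Dppa4 siRNA, beside 2.34% of all tested genes called lower there. This was Pcgf5, the PCGF protein of another variant PRC1. It stood at 2.87, 2.87 and 3.19 in control siRNA, 2.53, 2.56 and 2.70 in Dppa2 siRNA, and 2.24, 2.17 and 2.23 in Dppa4 siRNA. Pcgf5 fell by 0.76 on the log2 scale with Dppa4 siRNA (± 0.13 SE, adjusted p = 0.0132) and differed by -0.38 with Dppa2 siRNA (adjusted p = 0.177), and the difference between the knockdowns was not called (-0.38, adjusted p = 0.674). The call for Pcgf5 was lost without any 1 of the Dppa4 siRNA libraries (adjusted p of 0.062, 0.0825 and 0.0517 without A, B and C) and after removal of length and GC content (-0.53, adjusted p = 0.340). It was also lost when limma was given only the groups compared (adjusted p = 0.05, at the threshold) and when the intensity difference filter was required. With the covariate Pcgf5 was called with Dppa2 siRNA as well (-0.40, adjusted p = 0.0195).

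Competitors and partners for the same DNA sites gave no call without the covariate. In the MAX network, limma called 0 of 10 genes in either knockdown (1 in each at an unadjusted p below 0.05). The smallest adjusted p was that of Mycn with Dppa2 siRNA (-0.39, adjusted p = 0.287) and that of Myc with Dppa4 siRNA (0.59, adjusted p = 0.160). Among the other E2F genes and the pocket protein genes 0 of 10 were called (0 and 1 without adjustment), with E2f5 first with Dppa2 siRNA (0.27, adjusted p = 0.706) and E2f4 first with Dppa4 siRNA (0.34, adjusted p = 0.134). Without control siRNA C the E2f5 difference was -0.03. With the covariate Mycn (-0.34, adjusted p = 0.0104) was the 1 gene of these lists called with Dppa2 siRNA. In the same fit with Dppa4 siRNA 3 MAX network genes were called, 2 higher and 1 lower. Among the E2F and pocket protein genes 4 were called, 2 higher and 2 lower. Those higher included Myc (0.61, adjusted p = 0.000125) and E2f4 (0.34, adjusted p = 0.00916). Of 12 genes whose products share WDR5 in histone methyltransferase and acetyltransferase complexes 0 were called (0 in either without adjustment), and Ash2l had the smallest adjusted p in both knockdowns, at -0.18 (0.372) and -0.17 (0.337). With the covariate these became calls (-0.16, adjusted p = 0.0405, and -0.17, adjusted p = 0.0259), and 2 of the 12 genes were called higher with Dppa4 siRNA.

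Of the germline genes that PRC1.6 subunits are known to repress, 10 were called lower in both knockdowns. The list held 25 genes, all of which passed the filter. With Dppa2 siRNA 12 of 25 were called lower and 0 higher, beside 2.27% of all tested genes called lower. With Dppa4 siRNA 11 of 25 were called lower and 0 higher, beside 2.34%. An unadjusted limma p below 0.05 was reached by 20 and 19 of 25, beside 15.7% and 18% of all tested genes. Differences were above 0 for 4 of 25 and 2 of 25. Stag3 (0.36, unadjusted p = 0.0263), Sycp3 (0.35, 0.0166) and Meiob (0.88, 0.0426), named here after their values were seen, were higher with Dppa2 siRNA and not called. With Dppa4 siRNA these differed by 0.53, -0.48 and -0.35. Mael, Syce1 and Sohlh2 were singled out by the study on these samples and are not independent evidence of the direction. Without these 3 the counts were 9 and 8 of 22. The whole list was chosen with earlier results of these data known, so these counts are no independent evidence either. The median log2 difference of the list was -1.20 in the Dppa2 and -0.97 in the Dppa4 knockdown, against 0.02 and 0.03 over all tested genes. The comparisons share their control libraries. Ddx4, Dazl, Mael, Tdrd1, Mov10l1, Taf7l, Syce1, Tex11, Tuba3a and Sohlh2, named here after their values were seen, fell in both, Stk31 and Sycp1 were called with Dppa2 siRNA and Slc25a31 with Dppa4 siRNA. The difference between the knockdowns was not called for Stk31 (0.07, adjusted p = 0.993), Sycp1 (1.23, adjusted p = 0.795) or Slc25a31 (-0.48, adjusted p = 0.960). With Dppa4 siRNA the count was 7 of 25 when Dppa4 siRNA A, B or C was left out.

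Among the called genes, Sohlh2, a transcription factor of early germ cells, stood at 3.52, 3.78 and 3.74 in control siRNA, 0.88, 1.40 and 1.6 in Dppa2 siRNA, and 1.61, 1.48 and 1.28 in Dppa4 siRNA. Its level fell to 0.191 of control in the Dppa2 knockdown (-2.39 ± 0.20 SE, adjusted p = 0.00024) and 0.214 in the Dppa4 knockdown (-2.23 ± 0.20 SE, adjusted p = 0.000394). Dazl, which encodes a germ cell RNA-binding protein, stood at 2.70, 2.13 and 2.13 in control siRNA, -0.41, 0.31 and -0.03 in Dppa2 siRNA, and -0.10, 0.40 and 0.09 in Dppa4 siRNA, and fell to 0.195 and 0.220 (adjusted p of 0.00107 and 0.00185). No knockdown library of either gene reached a control library.

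The germline genes with the largest changes were read few times. Taf7l, a germ cell paralogue of a general transcription factor subunit, stood at 1.01, 0.59 and 1.21 in control siRNA, -1.94, -2.25 and -2.42 in Dppa2 siRNA, and -1.47, -1.95 and -1.59 in Dppa4 siRNA, from 58 to 86 reads in the control libraries and 3 to 11 in the others. It fell to 0.113 and 0.164 of control (adjusted p of 0.000358 and 0.00117). Sycp1, a protein of the synaptonemal complex, stood at 0.82, 0.04 and 0.23 in control siRNA, -4.49, -2.25 and -2.04 in Dppa2 siRNA, and -2.15, -1.35 and -1.59 in Dppa4 siRNA. Dppa2 siRNA A held 0 reads of Sycp1, which allows up to 3, so the fitted difference of -3.29 (± 0.61 SE, adjusted p = 0.0228) rests on the value given to 0 reads. The call was lost without control siRNA A (adjusted p = 0.0752) or B (0.0675). With Dppa4 siRNA Sycp1 differed by -2.06 (adjusted p = 0.116), and without Dppa2 siRNA A, which left the groups compared as they were and changed the shared spread, adjusted p was 0.0178. Slc25a31, an ADP/ATP carrier of the testis, stood at 0.27, 0.26 and 0.03 in control siRNA, -3.09, -0.90 and -2.95 in Dppa2 siRNA, and -3.38, -2.63 and -2.38 in Dppa4 siRNA. It differed by -2.50 with Dppa2 siRNA (adjusted p = 0.0513) and fell by 2.99 with Dppa4 siRNA (± 0.57 SE, adjusted p = 0.0246). Without Dppa2 siRNA B the first became a call (-3.21, adjusted p = 0.00527), and the second was lost without any 1 of the control or Dppa4 siRNA libraries (adjusted p of 0.0503 to 0.109). Among the knockdown libraries of Slc25a31 only Dppa2 siRNA B stood above -2, so this gene passed the filter through control siRNA. Its call, counted above, could hardly have been other than lower and is no evidence of the direction.

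**Figure D4:**
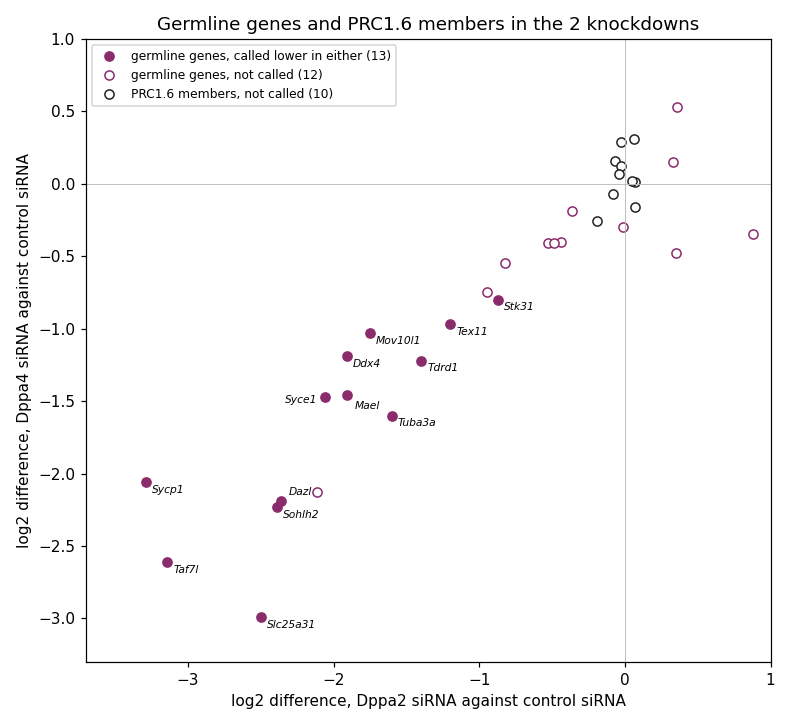
Log2 difference of the 25 germline genes and the 10 PRC1.6 genes with Dppa2 siRNA (x axis) and with Dppa4 siRNA (y axis), both against the same control siRNA libraries, with filled points for genes called in either. The 13 called germline genes lie below 0 on both axes, between -0.80 and -3.29, and the 10 PRC1.6 genes lie within 0.31 of 0.

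Transcripts of the 2C-like state, a rare ESC state that resembles the early embryo, were lower as well. All 8 of 8 markers were called lower in both knockdowns, beside 2.27% and 2.34% of all tested genes. Zscan4c, Zscan4f, Tmem92 and Gm8994 passed the filter only through the control siRNA libraries. Calls of these genes could hardly have been other than lower and are no evidence of the direction. The summed linear level of the 8 markers was 77.3 to 78.4 in the control siRNA libraries, 0.625 to 1.27 in the Dppa2 knockdown and 0.678 to 1.07 in the Dppa4 knockdown. Some of these markers belong to families of near-identical copies, among which reads may be split. The part of the 2C-like cells in the fall of the germline genes was not tested here. In bulk RNA fewer cells of a type and less RNA per cell cannot be told apart. The study places Mael, Syce1 and Sohlh2 in a group apart from the 2C-like transcripts. It reports DPPA2 and DPPA4 at the promoters of that group and not at the starts of 2C-like genes other than Dux. The summed linear level of the 10 PRC1.6 genes was 706 to 962 in control siRNA, 756 to 932 in the Dppa2 knockdown and 810 to 863 in the Dppa4 knockdown, so the groups overlapped. Of 8 primitive endoderm markers 0 were called with Dppa2 siRNA (3 without adjustment), and Sox17 and Gata6 rose with Dppa4 siRNA (1.20 and 1.44, adjusted p of 0.0348 and 0.0132), while the summed level of the list was 122 to 125 in control siRNA and 104 to 119 with Dppa4 siRNA. Trophoblast (3 of 4 tested) and fibroblast (2 of 5 tested) markers gave 0 calls in either knockdown, also without adjustment, with summed levels of 4.65 to 6.73 and 5.66 to 8.24 over all libraries.

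The promoters of the germline genes were searched for the letters that the DNA-binding subunits are known to prefer, namely the E-box CACGTG for MGA and MAX, TTCCCGC or its other strand GCGGGAA for E2F6 and TFDP1, and GGTGTGA or TCACACC for a T-box. The search used RefSeq windows of GRCm38.p6 that reach from 250 bases before to 50 bases after each start. The E-box was found in 8 of the 12 germline genes that fell and had a window (Tex11 had none) and in 3 of the 10 others with a window, and 8.09% of 27025 genes with a window hold it. E2F letters were found in 3 of 12 and in 6 of 10, and 5.29% of all genes hold them. The T-box letters were found in 0 of 12 and 1 of 10, against 4.60%. These genes were listed because PRC1.6 subunits repress them, so the E-boxes describe the list and are no result of the knockdowns. The E-box windows of the genes that fell are shown 5′ to 3′ on the gene's strand, with the motif in capitals, to set the shared site beside the differing flanks:
Taf7l: ccctcttatacCACGTGacagaactcgc
Sycp1: agagaacccggCACGTGggaagggaaat
Slc25a31: gcaactggaaaCACGTGttatggtcaca
Ddx4: gcgtccgcccgCACGTGcagccgtttaa
Tdrd1: ggggctgcgcgCACGTGggagtaaactg
Stk31: ggccggccaccCACGTGaccagggctgc
Mael: accaggcctacCACGTGacaatccccgc
The match in Mov10l1 lies at the edge of its window and is not shown. In the order given, the stretches lie at chrX:134476523-134476550 (minus strand), chr3:102936178-102936205 (minus), chr3:40708767-40708794 (plus), chr13:112652323-112652350 (minus), chr19:56826187-56826214 (plus), chr6:49395473-49395500 (plus) and chr1:166238951-166238978 (minus). The E-box begins 49, 94, 93, 29, 11, 55 and 223 bases before the start of the gene.

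Slc25a31 and Ddx4 held an E2F match beside the E-box. The first is at chr3:40708879-40708907 (plus strand), past the start, and the second at chr13:112652429-112652457 (minus strand), with the E2F letters or their other strand in capitals:
Slc25a31: cagcgcccgctTTCCCGCcagggtaaagc
Ddx4: ccgtccatgggGCGGGAAgtcgcgcgccg
Sohlh2, Dazl and Syce1 held none of the 3 motifs in their windows, although they fell in both knockdowns. Of the PRC1.6 genes themselves, 9 had a window (Rybp had none). Max and Tfdp1 held an E-box, and 0 of 9 held E2F or T-box letters in these windows. The Max window is shown because the E-box lies across the start of the gene for an E-box binding protein, at chr12:76962235-76962262 (minus strand), with the motif beginning 3 bases before the start:
Max: gtgagcccggtCACGTGttagggggccg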

How the data were processed

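The authors trimmed reads with Trim Galore (0.4.5 in the submitters' processing notes), mapped them to GRCm38 with HISAT2 2.0.5, quantitated mRNA probes strand-specifically in SeqMonk and matched the distributions of the libraries. They deposited normalized log2 values for 25965 genes in 9 libraries, 3 per siRNA. The authors called genes with DESeq2 and an intensity difference filter. Here the log2 values were tested with limma 3.58.1 in R 4.3.3 (all 9 libraries, siRNA as the only term, intensity trend, Benjamini-Hochberg adjustment over 14601 genes with log2 above -2 in at least 3 libraries, threshold 0.05, 95% intervals). limma stood in for the count test because the table holds no counts. The script was tested on simulated data. Up to 300 reads, the order of the distinct values of a library was read as whole reads; totals above that are extrapolated and approximate. The floor for 0 reads was 3 reads in a library, for counting error only. Exon lengths and identifiers come from GENCODE vM21 (GRCm38), and promoter windows from RefSeq GRCm38.p6. Symbols missing from the table were matched through RefSeq synonyms at the same place.

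Members and lists were chosen with earlier results of these data known. Named genes were all 10 members, the genes called in either knockdown from each other list (up to 5 by the larger log2 change, otherwise the gene with the smallest adjusted p in each knockdown), Dppa2 and Dppa4, and for Pcgf6 and Mga the 3 genes with the most similar values. Names outside this rule are marked. Samples were grouped by the siRNA in their labels. Same-letter libraries of different siRNAs deviated from their group means with correlations from -0.58 to 0.37 over 9 pairs. Libraries with other letters gave -0.66 to 0.69 over 18 pairs. These ranges overlap and do not show whether the letters pair samples, and the main fit left them unpaired. The alternatives were filters, a pseudocount of 1, scalings, the spread model, the samples in the fit, a replicate block, an intensity difference filter, removal of length and GC content and leaving out each library. The first principal component as a covariate was added after the data had been seen, with and without each library. Its positions were computed once from all 9 libraries and kept when a library was left out. The SEs treat these positions as known. The Dux transcript is not reported here.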

Additional observations from a re-analysis of the deposited data

Results flagged for a closer look

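Among the 10 PRC1.6 genes, E2f6 was the 1 whose knockdown libraries all moved in opposite directions from the control mean of 3.91. With Dppa2 siRNA A, B and C it stood at -0.16, -0.05 and -0.01 from that mean, and with Dppa4 siRNA at 0.10, 0.16 and 0.23. The difference between the knockdowns, tested with limma, was 0.24 and was not called (adjusted p = 0.769). The SD of the 3 control siRNA libraries (4.01, 3.99 and 3.73) was 0.16. Dppa4 siRNA values that all lay above the Dppa2 siRNA values were seen for 10.1% of all tested genes. The share that also lay on opposite sides of the control mean is not available here, so the pattern is not read as particular to E2f6.

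Dppa2 and Dppa4 differed between the knockdowns, each in the libraries of its own siRNA. Dppa2 was higher by 3.43 with Dppa4 siRNA than with Dppa2 siRNA (adjusted p = 2.43e-05), and Dppa4 differed by -0.99 (adjusted p = 0.00351).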

How the results depend on the processing

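In 600 comparisons of a PRC1.6 gene under an alternative, 561 kept their direction and their side of the threshold, 3 became calls and 36 changed sign, none of which was called. The count of PRC1.6 genes called was 0 under every alternative except the first principal component as a covariate, chosen after the data had been seen, with 2 for Dppa4 siRNA against control and 1 between the knockdowns. In that fit the counts over all genes were 2516, 3615 and 774 (Dppa2 siRNA, Dppa4 siRNA, and between the knockdowns) in place of 502, 502 and 3, and germline genes 20 (18 lower, 2 higher) and 19 (18 lower, 1 higher) in place of 12 and 11.

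Without a filter 9140 genes were called with Dppa2 siRNA, 7462 of which held 0 reads in all 9 libraries, 5 between the knockdowns and 7 germline genes with Dppa4 siRNA. The value given to 0 reads was -4.49, -4.50 and -4.49 in control siRNA A, B and C and -4.49, -4.48 and -4.47 in Dppa2 siRNA. Calls of those 7462 genes are thus no change of RNA. With only the groups compared 230 and 294 genes were called against control, with the intensity difference filter 279 and 284, and after removal of length and GC content 806 and 803. With the replicate block 238, 212 and 1 genes and 7 germline genes with Dppa4 siRNA were called, and 0 PRC1.6 genes. The causes of the other shifts were not tested.

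Leaving out each library gave 232 to 494, 184 to 506 and 1 to 3 genes, and 7 to 12 germline genes with Dppa4 siRNA. With Dppa2 siRNA the log2 differences then ranged from -0.14 to 0.07 for Pcgf6, -0.16 to 0.05 for L3mbtl2, -0.49 to 0.17 for Mga, -0.25 to 0.27 for Tfdp1, -0.13 to 0.08 for Ring1, -0.16 to 0.30 for Rnf2, -0.26 to 0.19 for Rybp and -0.03 to 0.47 for E2f5. With Dppa4 siRNA they ranged from -0.04 to 0.07 for Max, -0.53 to 0.11 for Mga, -0.02 to 0.20 for Ring1, -0.32 to 0.07 for Rnf2, -0.24 to 0.19 for Rybp and -0.14 to 0.02 for Dppa2. Between the knockdowns they ranged from -0.26 to 0.23 for Mga and -0.13 to 0.19 for Rybp.

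The sign also changed after removal of length and GC content for Pcgf6 with Dppa2 siRNA (0.02) and, with Dppa4 siRNA, for Max (-0.03), Ring1 (-0.04), Rybp (0.00), Wdr5 (-0.05) and Dppa2 (0.04), and with the covariate for Pcgf6 (0.01) and L3mbtl2 (0.01) with Dppa2 siRNA and Rybp between the knockdowns (-0.05). The widest intervals were those of Mga, Tfdp1, Rybp and Rnf2, and germline genes with few reads have values of low precision.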
